A study of Citrullus lanatus with 26 samples.

Results

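MicroRNAs were counted in the fruit flesh of the watermelon cultivar 97103 (Citrullus lanatus subsp. vulgaris) at 10 and 30 DAP, the age unit of the labels, in the series' comparison of genotypes. The comparison rests on 4 of the 26 libraries of the series, 2 at 10 DAP and 2 at 30 DAP. These libraries were taken by genotype, age and set and not by any measured value. The comparison itself was chosen with earlier results of these data known. The labels name no treatment, and fruit flesh was the tissue of every group. The same set holds 4 libraries of the genotype PI296341FR, 2 at each of these ages, and a separate stage set holds 18 libraries of 97103, of which 6 are at 10 or 30 DAP. The labels do not say whether numbered libraries came from separate plants or fruits, and p-values therefore reflect how much these particular libraries varied, possibly for technical reasons. A lower count per cell and a smaller share of the cells that hold a microRNA cannot be told apart in flesh taken as a whole.

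Plant microRNAs are short RNAs cut from hairpin precursors that guide ARGONAUTE proteins to matching messenger RNAs, which are then cut or silenced. Most conserved families each control 1 class of regulators: auxin response factors, NAC factors, HD-ZIP III factors, GRF factors and others that set the growth and identity of plant organs. As fleshy fruit develops, cell division gives way to expansion and then to ripening, and several of these families are known to act in those steps in other species.

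The deposited tables give counts for 1263 microRNA names taken from many species, such as cme- for melon, gma- for soybean, vvi- for grapevine and aly- for Arabidopsis lyrata. A prefix names the species of the reference entry, not the origin of the RNA. Names of 1 family often had the same counts in all 8 libraries of the genotype set, so each distinct set of counts was kept once, as a profile under 1 name. This left 428 profiles in 31 families, of which 427 passed the filter on low counts. Profiles of 1 family still differ by few reads in many cases and are not independent of each other.

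Summed over profiles, the libraries of 97103 at 10 DAP held 4594729 and 4339782 counts, and those at 30 DAP held 14118187 and 27133488 counts. Levels below are in CPM, counts scaled to the library's adjusted total over profiles. The adjustment multiplied each total by a scaling factor (TMM), 0.790 and 1.55 at 10 DAP and 1.23 and 0.458 at 30 DAP. How near replicates lie in CPM, and whether groups overlap, can therefore depend on these factors. The floor of 3 counts was worth 0.111 to 0.691 CPM on unadjusted totals. On the adjusted scale of the levels, 3 counts were 0.242 CPM in replicate 2 at 30 DAP. In replicate 1 at 30 DAP, 2 counts were 0.115 CPM on that scale. The replicates of a group stood far apart: 114 of 428 profiles differed by more than 4-fold between the libraries at 10 DAP, and 85 did at 30 DAP. The Spearman correlation over profiles was 0.942 at 10 DAP and 0.929 at 30 DAP.

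A pair of families, miR166 and miR168, made up most counts in every library, in very different proportions. The miR166 family, which targets HD-ZIP III factors of meristem and vascular patterning, held 35.1% and 77.8% of profile counts at 10 DAP and 60.8% and 93.0% at 30 DAP. The miR168 family, which targets ARGONAUTE1 and so the microRNA pathway itself, held 50.7% and 5.55% at 10 DAP and 26.8% and 2.90% at 30 DAP. In both families the replicates of 1 age lay further apart than the means of the ages, and at both ages replicate 2 was the library rich in miR166 and poor in miR168. The miR156 family, which targets SPL factors, followed with 9.77% and 8.21% at 10 DAP and 7.78% and 1.28% at 30 DAP. These are shares of counts over profiles that may share reads, so they describe the tables and not shares of molecules.

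**Figure D1:**
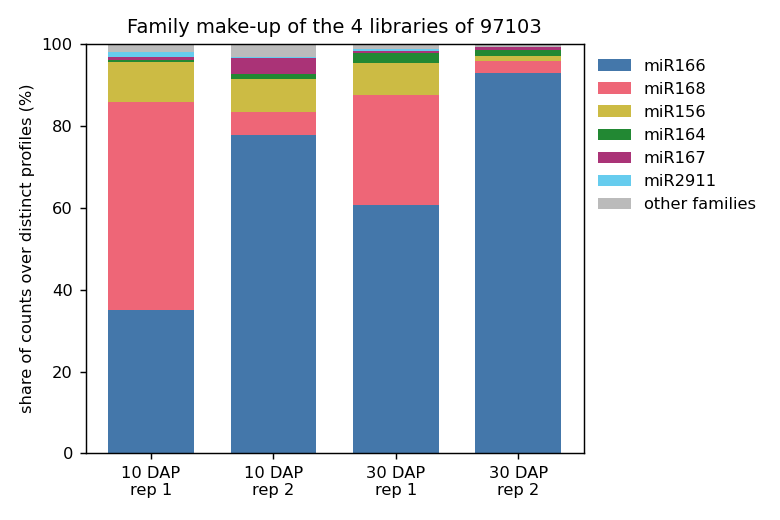
Stacked bars give the share (%) of counts over distinct profiles held by 6 families and by all others in each of the 4 libraries of 97103. The miR166 share runs from 35.1% to 93.0% and the miR168 share from 2.90% to 50.7%, with replicates of 1 age far apart.

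Between 10 and 30 DAP, 24 profiles of 427 fell and none rose (edgeR quasi-likelihood F test over all profiles, Benjamini-Hochberg adjusted p under 0.05). The calls lower at 30 DAP were 5.62% of profiles and the calls higher were 0%. At an unadjusted p under 0.05 there were 62 lower and 32 higher profiles, and DESeq2 called 23 lower and 32 higher. It gave no adjusted p to 116 of the 427 profiles, so where it called none below, some profiles may have had no adjusted p. The 24 profiles lay in 7 of the 31 families: miR390 with 12, miR408 with 4, miR396 with 3, miR167 with 2, and miR160, miR164 and miR2950 with 1 each. The median log2 fold change of all profiles was −0.59, and it was −0.41 with the RLE factors of DESeq2 and −1.20 without scaling factors. Changes of families are therefore also given relative to that median.

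The libraries of the 2 ages did not overlap for 152 profiles that were lower at 30 DAP (35.6%) and 98 that were higher (23.0%). Of the 24 called profiles, 21 had groups that did not overlap, and the exceptions were the 3 of miR396. Counts behind the calls were small at 30 DAP: 20 of the 24 had under 10 counts in at least 1 library there. Leaving out replicate 2 at 30 DAP gave 0 calls (edgeR, 124 profiles at an unadjusted p under 0.05). Leaving out replicate 1 at 10 DAP gave 3. There were 13 or 14 without replicate 2 at 10 DAP or either PI296341FR library at 10 DAP, and 48 and 46, of them 31 higher and all of miR164, without the PI296341FR libraries at 30 DAP. All 24 stayed lower in the other leave-outs of 1 library, and 21 did without replicate 1 at 10 DAP.

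**Figure D2:**
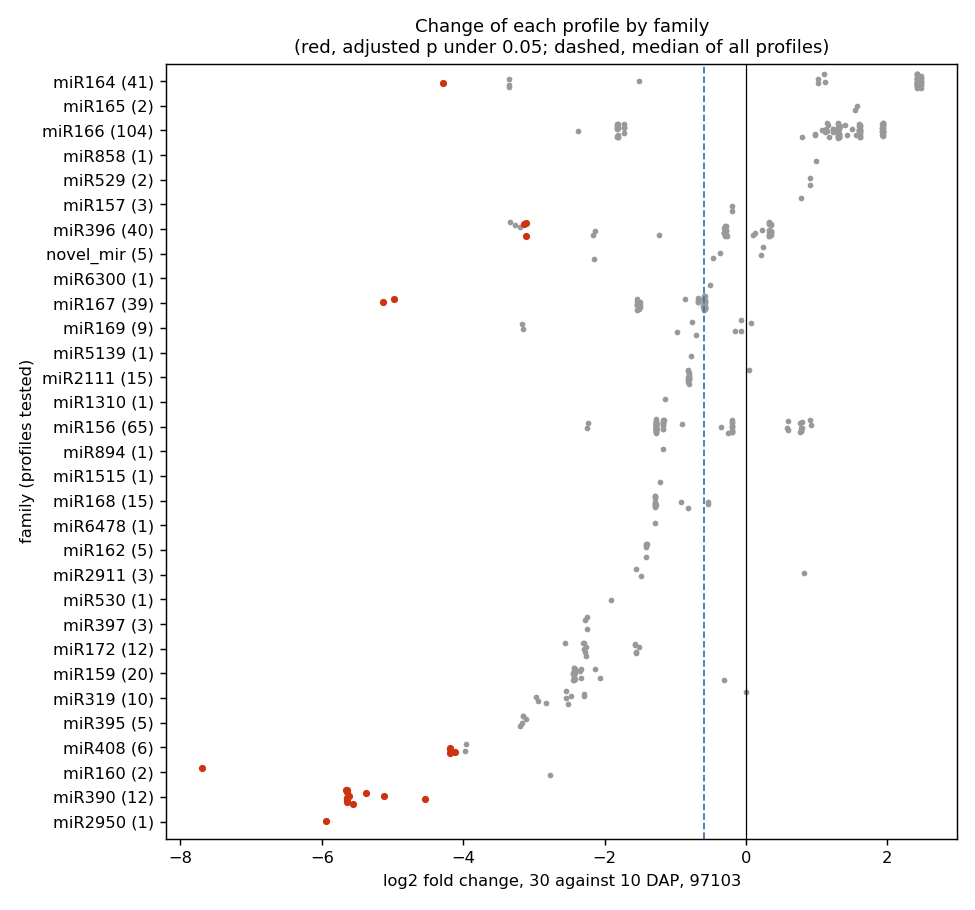
Each point is 1 profile, placed by its log2 fold change (30 against 10 DAP, 97103) in the row of its family, with the number of profiles tested beside the family name. Red points passed an adjusted p under 0.05, all of them left of 0, and the dashed line marks the median of all profiles at −0.59.

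Of 53 profiles tested in the auxin signalling families miR160, miR167 and miR390, 15 fell and none rose, against 24 of 427 (5.62%) over all profiles. Of these 15, 12 are near-copies of 1 miR390 measurement and 2 are a near-copy pair of miR167, so they stand for few separate observations. Of the 53, 38 were not called and 16 had an unadjusted p under 0.05. All 53 had a negative log2 fold change, with a median of −1.50, against −0.59 over all profiles. The miR393 family of the same list had no tested profile.

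The miR390 family, which loads ARGONAUTE7 and starts the TAS3 small RNAs that limit auxin response factors, fell in all 12 of its profiles. Its profile bdi-miR390a stood at 94.0 and 8.61 CPM at 10 DAP and at 1.73 and 0.242 CPM at 30 DAP, from 341, 58, 30 and 3 counts. Both libraries at 10 DAP were above both at 30 DAP, although replicate 1 was the higher library at each age by several fold. The log2 fold change was −5.65 (SE 1.42, edgeR adjusted p = 0.00334, n = 2 libraries a group). The other profiles nearly copied it: over the 12, levels ran from 94.0 to 111 CPM and from 8.01 to 10.4 CPM in the libraries at 10 DAP. At 30 DAP they ran from 1.73 to 4.03 CPM and from 0.242 to 1.13 CPM. The most abundant profile, cme-miR390b, had the smallest change, −4.54 (SE 1.34, edgeR adjusted p = 0.0189). The family median of −5.64 was −5.06 relative to the median of all profiles and between −5.06 and −4.09 over the 3 scalings. The call for bdi-miR390a was lost without replicate 1 at 10 DAP (log2 fold change −2.57) and without replicate 2 at 30 DAP (−4.87).

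The steepest fall was in gma-miR160a-3p, a 3p-arm name of the family whose main mature form targets auxin response factors of the ARF10, ARF16 and ARF17 group. It stood at 456 and 14.7 CPM at 10 DAP and at 1.50 and 0.725 CPM at 30 DAP, from 1655, 99, 26 and 9 counts. Both libraries at 10 DAP lay above both at 30 DAP, with the former 2 more than 10-fold apart. The log2 fold change was −7.69 (SE 1.61, edgeR adjusted p = 0.000823). It was called in 17 of 19 other settings, without replicate 1 at 10 DAP it was −3.14 with an edgeR adjusted p of 0.327, and without replicate 2 at 30 DAP it was −7.27 with 0.0765. The other tested profile, aly-miR160a-3p, stood at 315 and 12.3 CPM and then at 34.4 and 13.5 CPM, so its groups overlapped, and it was not called (log2 fold change −2.77, edgeR adjusted p = 0.177). In both profiles replicate 1 was the higher library at each age, as it was in miR390.

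The miR167 family, which targets ARF6 and ARF8, held 2 profiles that fell, near-copies of each other and both rare, among 39. The profile cme-miR167e stood at 3.58 and 13.8 CPM at 10 DAP and at 0.288 and 0.161 CPM at 30 DAP, from 13, 93, 5 and 2 counts. Its groups did not overlap, and its log2 fold change was −5.14 (SE 1.41, edgeR adjusted p = 0.00849). Without replicate 2 at 10 DAP, the higher library, the log2 fold change was −2.98 and the call was lost (edgeR adjusted p = 0.215). It was also lost without replicate 1 or replicate 2 at 30 DAP (edgeR adjusted p = 0.0683 and 0.0780). The near-copy aqc-miR167, at −4.98, lost its call without these 3 libraries and without either PI296341FR library at 10 DAP. Another rare profile, vvi-miR167c, chosen after its values were seen, stood at 7.16 and 11.9 CPM and then at 2.19 and 8.29 CPM, and was not called (log2 fold change −0.87, edgeR adjusted p = 0.599). The most abundant profile, ccl-miR167a, stood at 363 and 776 CPM at 10 DAP and at 134 and 614 CPM at 30 DAP, which overlap, with a log2 fold change of −0.61 (SE 1.03, edgeR adjusted p = 0.678). The median of the 39 profiles was −0.61, within 0.02 of that of all profiles.

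The copper families were scarce in 97103 and held 4 of the 24 calls. Of 9 profiles tested in miR397 and miR408, 4 fell and none rose, against 24 of 427 (5.62%) that fell over all profiles. The 4 were all of miR408 and near-copies of each other. The list median was −3.97, against −0.59 over all profiles. All 6 miR408 profiles were called lower with RLE factors and without scaling factors. Both families target laccases or plantacyanin-like copper proteins, and both are known in Arabidopsis to rise when copper is short. Their summed share of counts was 0.0057% and 0.0371% at 10 DAP and 0.0029% and 0.0010% at 30 DAP. The miR398 and miR857 families of the list had no tested profile.

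Among miR408 profiles, ahy-miR408-3p stood at 4.96 and 15.7 CPM at 10 DAP and at 0.461 and 0.644 CPM at 30 DAP, from 18, 106, 8 and 8 counts. The groups did not overlap, and here replicate 2 was the higher library at 10 DAP. The log2 fold change was −4.19 (SE 1.38, edgeR adjusted p = 0.0498), just inside the threshold, while cme-miR408 at −3.97 lay just outside it (adjusted p = 0.0560). The call for ahy-miR408-3p was lost without any 1 of the 8 libraries, and it remained negative in all 19 other settings, from −5.01 to −2.21. The profile cme-miR397 stood at 14.1 and 48.5 CPM and then at 7.03 and 6.12 CPM, without overlap, and was not called (log2 fold change −2.25, SE 1.25, edgeR adjusted p = 0.252).

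**Figure D3:**
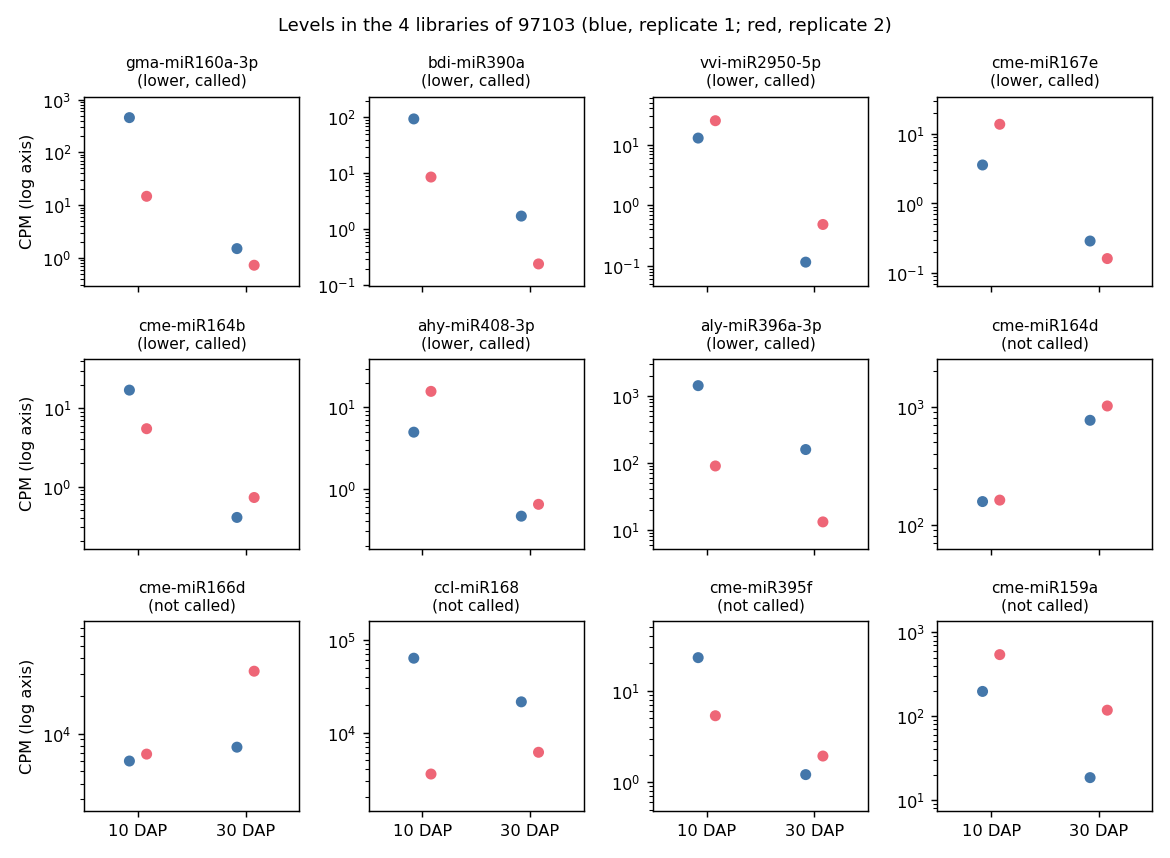
Points give CPM on a log axis in the 4 libraries of 97103 for 7 called and 5 uncalled profiles, replicate 1 in blue and replicate 2 in red. The groups are apart for bdi-miR390a, gma-miR160a-3p and vvi-miR2950-5p, and they overlap for aly-miR396a-3p and ccl-miR168.

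Families of organ growth and meristems held 197 tested profiles, of which 4 fell, none rose, and 49 had an unadjusted p under 0.05. Over all profiles, 24 of 427 fell (5.62%). The median log2 fold change of the 197 was 1.30, set by the many profiles of miR166, against −0.59 over all profiles. The 4 that fell were 3 of miR396 and 1 of miR164. The miR171 family of the list had no tested profile.

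The miR164 family, which targets NAC factors of organ boundaries and ageing, held profiles that differed in direction. The most abundant, cme-miR164d, stood at 157 and 161 CPM at 10 DAP and at 765 and 1011 CPM at 30 DAP, from 569, 1087, 13275 and 12555 counts. On this adjusted scale the replicates lay close together at each age, which the unadjusted counts and totals do not show. Both libraries at 30 DAP were higher, and yet the profile was not called (log2 fold change 2.48, SE 1.01, edgeR adjusted p = 0.0972). Of the 41 profiles of the family, 36 had groups higher at 30 DAP without overlap and 5 had groups lower without overlap. Over all 427 profiles, 98 (23.0%) were higher and 152 (35.6%) lower without overlap. Many of the 41 nearly copy each other, and joining near-identical names left 10. The family median was 2.42, or 3.01 relative to all profiles and between 2.94 and 3.24 over the 3 scalings.

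How many miR164 profiles were called higher depended on the setting. There were 32 calls with RLE factors and with DESeq2, and 31 with TMM factors at a minimum count of 50 or without either PI296341FR library at 30 DAP. There were none with TMM factors at a minimum count of 10 over the 8 libraries, and none without scaling factors, where 4 miR164 profiles were called lower. The value for cme-miR164d stayed positive in all 19 other settings, from 1.91 to 3.43, with adjusted p-values from 0.00331 to 0.545. Settings that called it were RLE factors, DESeq2, a minimum count of 50 and the fits without either PI296341FR library at 30 DAP.

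In the opposite direction, cme-miR164b fell from 17.1 and 5.49 CPM to 0.403 and 0.725 CPM, from 62, 37, 7 and 9 counts. Its groups did not overlap, and its log2 fold change was −4.28 (SE 1.27, edgeR adjusted p = 0.0189), called in 8 of 17 other settings. A more abundant set of names lay on the same side: bdi-miR164c stood at 331 and 487 CPM at 10 DAP and at 27.9 and 52.2 CPM at 30 DAP. Its replicates also lay close together on the adjusted scale, its groups did not overlap, and it was not called (log2 fold change −3.35, SE 1.27, edgeR adjusted p = 0.0972). The melon name cme-miR164a was intermediate, at 358 and 488 CPM and then at 191 and 106 CPM, with a log2 fold change of −1.51 (SE 1.07, edgeR adjusted p = 0.361). These names were singled out after their values were seen, and the tables do not show the sequences by which they differ.

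The miR396 family, which targets GRF factors of cell proliferation, had 3 profiles that fell among 40. All 3 carried 3p-arm names, and the 7 profiles with such names had log2 fold changes from −3.34 to −1.23. The profile aly-miR396a-3p stood at 1420 and 89.8 CPM at 10 DAP and at 158 and 13.1 CPM at 30 DAP. The groups overlapped, since replicate 2 at 10 DAP was below replicate 1 at 30 DAP, while within each replicate number the library at 30 DAP was lower. Its log2 fold change was −3.14 (SE 1.04, edgeR adjusted p = 0.0498), it was called in 1 of 19 other settings, and it became 0.43 without replicate 1 at 10 DAP. The 33 other profiles had no call, a median of 0.10 and values from −2.16 to 0.36. The difference between arms was not tested. The family had no call with RLE factors and 5 lower without scaling factors. Of the 3 profiles above, aly-miR396a-3p and gma-miR396i-3p were not among these 5 (edgeR adjusted p = 0.0763 and 0.0771). DESeq2 also called the family lower in part, but called neither of these profiles.

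None of the 104 miR166 profiles was called, none had an unadjusted p under 0.05, and DESeq2 called none, while 17 were called lower without scaling factors. The most abundant, cme-miR166d, stood at 6051 and 6872 CPM at 10 DAP and at 7805 and 31511 CPM at 30 DAP. On this adjusted scale both libraries at 30 DAP were the higher ones, replicate 1 only slightly. The log2 fold change was 1.61 (SE 1.19, edgeR adjusted p = 0.361). In unadjusted shares of the family, replicate 2 at 10 DAP (77.8%) was above replicate 1 at 30 DAP (60.8%), so the order depends on the scaling. Signs split within the family, with 86 profiles positive (median 1.46) and 18 negative (median −1.82). Of the latter, cme-miR166e stood at 2583 and 3378 CPM and then at 253 and 1441 CPM, without overlap (log2 fold change −1.82, SE 1.02, edgeR adjusted p = 0.246). The closely related aly-miR165a-3p stood at 9.37 and 8.31 CPM and then at 15.2 and 37.4 CPM, and was not called (log2 fold change 1.57, edgeR adjusted p = 0.361).

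The miR319 family, which targets TCP factors of leaf and petal growth, was scarce. All 10 profiles had negative values, 9 without overlap, with a median of −2.53. Over all profiles, 152 of 427 (35.6%) were lower without overlap, and the median was −0.59. None of the 10 passed the test, 7 had an unadjusted p under 0.05, and DESeq2 called none of those to which it gave an adjusted p. In this family 9 were called lower without scaling factors. Its most abundant profile, cme-miR319c, stood at 3.86 and 5.79 CPM and then at 1.96 and 7.73 CPM and overlapped (log2 fold change −0.00, SE 1.08, edgeR adjusted p = 0.997). The rarer cme-miR319a stood at 2.48 and 6.53 CPM and then at 0.345 and 1.21 CPM, from 9, 44, 6 and 15 counts.

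The phase-change families miR156, miR157 and miR172, which act in sequence on SPL and AP2-like factors in the passage from juvenile to adult growth, had no call among 80 profiles. At an unadjusted p under 0.05 there was 1 profile, DESeq2 called none, and 1 miR172 profile was called lower without scaling factors. Their median of −1.27 lay 0.69 below that of all profiles. The most abundant miR156 profile, gma-miR156e, stood at 2352 and 741 CPM at 10 DAP and at 2090 and 619 CPM at 30 DAP, which overlap (log2 fold change −0.19, SE 0.95, edgeR adjusted p = 0.860). The miR157 profile aly-miR157c-5p had nearly the same counts (log2 fold change −0.19), so it adds no separate measurement. The profile cme-miR172b stood at 29.2 and 5.34 CPM and then at 5.59 and 6.04 CPM, with replicate 1 at 10 DAP the only high library (log2 fold change −1.56, SE 1.19, edgeR adjusted p = 0.361).

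Within miR156 the profiles differed. Of 65, 53 had negative values and 12 positive ones. Among melon entries, cme-miR156b nearly copied gma-miR156e (log2 fold change −0.19), while cme-miR156c stood at 2578 and 1137 CPM and then at 1039 and 496 CPM, without overlap (log2 fold change −1.28, SE 0.97, edgeR adjusted p = 0.361). In contrast cme-miR156f stood at 832 and 350 CPM and then at 1337 and 707 CPM, which overlap (log2 fold change 0.79, SE 1.07, edgeR adjusted p = 0.624).

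Families that target MYB factors, miR159 and miR858, had no call among 21 profiles, 14 at an unadjusted p under 0.05 and none called by DESeq2. Without scaling factors, 18 of the 20 miR159 profiles were called lower. The profile cme-miR159a, of the family that targets GAMYB-like factors, stood at 197 and 542 CPM at 10 DAP and at 18.4 and 118 CPM at 30 DAP. The groups did not overlap, with a log2 fold change of −2.44 (SE 1.20, edgeR adjusted p = 0.200). It was negative in all 19 other settings, from −4.33 to −0.55, and without scaling factors it was called (−3.71, edgeR adjusted p = 0.0164). The single miR858 profile, cme-miR858, stood at 2.20 and 2.08 CPM and then at 2.71 and 5.88 CPM (log2 fold change 1.00, SE 1.12, edgeR adjusted p = 0.553).

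The list of ripening regulators, which joins miR156, miR157, miR172 and miR164, had 1 fall, cme-miR164b, and no rise among 121 profiles. Over all profiles, 24 of 427 fell (5.62%). Within the list 37 had an unadjusted p under 0.05, and the list median was −0.19, against −0.59 over all profiles.

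The phosphate, sulphate and phloem-mobile families were represented by miR395 and miR2111, with no call among 20 profiles, 5 at an unadjusted p under 0.05 and none called by DESeq2. Without scaling factors all 5 miR395 profiles were called lower. The profile cme-miR395f, of the family that targets ATP sulfurylases and a sulphate transporter, stood at 23.1 and 5.34 CPM and then at 1.21 and 1.93 CPM. Its groups did not overlap, and its log2 fold change was −3.16 (SE 1.24, edgeR adjusted p = 0.0972), called in 3 of 18 other settings. The profile bna-miR2111b-5p, of a shoot-to-root signal of nutrient state in legumes and Arabidopsis, stood at 274 and 394 CPM and then at 71.3 and 306 CPM, which overlap (log2 fold change −0.82, SE 1.14, edgeR adjusted p = 0.629). The summed share of these phloem-mobile families was 0.308% and 0.844% at 10 DAP and 0.123% and 0.196% at 30 DAP, lower at 30 DAP without overlap. These are shares of unadjusted counts, mostly of miR2111 (0.299% and 0.840%, then 0.122% and 0.195%). In CPM 0 of the 15 miR2111 profiles and all 5 of miR395 were lower without overlap. The part of this share in the other results was not tested. No family in the tables defines fruit flesh, so the labelled tissue was not checked.

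The miRNA pathway families miR162, which targets DICER-LIKE1, and miR168 had no call among 20 profiles, none at an unadjusted p under 0.05 and none by DESeq2. The profile ccl-miR168 stood at 63515 and 3572 CPM at 10 DAP and at 21473 and 6132 CPM at 30 DAP, so both extremes were at 10 DAP (log2 fold change −1.28, SE 1.51, edgeR adjusted p = 0.559). Relative to all profiles, the miR168 median was −0.69 under TMM, 0.00 under RLE and 0.28 without scaling factors. The profile osa-miR162a stood at 149 and 74.0 CPM and then at 44.6 and 39.3 CPM, without overlap (log2 fold change −1.41, SE 1.21, edgeR adjusted p = 0.435).

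The miR2911 names match fragments of ribosomal RNA and served as a mark of RNA quality. They held 1.02% and 0.231% of counts at 10 DAP and 0.532% and 0.0320% at 30 DAP, so replicate 1 was the richer library at each age, as it was for miR168, miR390, both miR160 profiles and the 3p-arm names of miR396. Replicate 1 was the higher library at both ages for 16 of the 24 called profiles (66.7%) and for 114 of all 427 (26.7%). The 16 were the 12 near-copies of miR390, the 3 near-copies of miR396 and gma-miR160a-3p. They stand for few separate observations, so the 2 shares are not compared. The profile nta-miR2911 had a log2 fold change of −1.55 (SE 1.36, edgeR adjusted p = 0.443), with no call among 3 profiles, none at an unadjusted p under 0.05 and none by DESeq2. Its part in the calls was not tested. None of the 6 families of the list of NBS-LRR defence had a tested profile.

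Outside the lists, vvi-miR2950-5p fell from 13.0 and 25.1 CPM at 10 DAP to 0.115 and 0.483 CPM at 30 DAP, from 47, 169, 2 and 6 counts. Its groups were far apart, and replicate 2 was the higher library at both ages, unlike in miR390. The log2 fold change was −5.94 (SE 1.40, edgeR adjusted p = 0.00334). It was called in 16 of 18 other settings, and DESeq2, which gave it no adjusted p, is not among the 18. With counts summed per family, miR2950 was the only family called. There miR390 and miR408 lay just outside the threshold, both with an edgeR adjusted p of 0.0501. The call for vvi-miR2950-5p was lost without either library at 30 DAP, with log2 fold changes of −5.22 and −7.09.

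The most abundant of the other families were not called. The profile ppt-miR894 stood at 518 and 431 CPM and then at 237 and 186 CPM, without overlap (log2 fold change −1.17, SE 1.04, edgeR adjusted p = 0.449). For cme-miR530b the levels were 132 and 274 CPM and then 21.5 and 86.5 CPM, also without overlap (log2 fold change −1.91, SE 1.20, edgeR adjusted p = 0.311). Levels overlapped for cme-miR169k, of a family that targets NF-YA factors (log2 fold change 0.07), for gma-miR6300 (−0.51) and for far-miR529 (0.91). The profile far-miR529 stood at 124 and 13.2 CPM at 30 DAP. It had nearly the same counts as the miR156 profile ath-miR156j, so it adds no separate measurement. Another miR169 profile, cme-miR169g, chosen after its values were seen, stood at 106 and 31.3 CPM and then at 8.18 and 7.08 CPM, without overlap (log2 fold change −3.16, SE 1.28, edgeR adjusted p = 0.0972).

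None of the 5 novel_mir names was called or had an unadjusted p under 0.05, and DESeq2 called none. The closest to the threshold, novel_mir_31, stood at 1195 and 664 CPM at 10 DAP and at 150 and 268 CPM at 30 DAP, without overlap (log2 fold change −2.15, SE 1.10, edgeR adjusted p = 0.228). The others overlapped: novel_mir_57 had a log2 fold change of 0.21, novel_mir_93 of 0.25, novel_mir_105 of −0.37 and novel_mir_172 of −0.47.

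In PI296341FR the same ages gave another picture, with 33 profiles higher at 30 DAP (7.73%) and none lower by edgeR or DESeq2, among 39 at an unadjusted p under 0.05. With every listed name kept, copies included, the same test gave 144 lower of 1261 and none higher, and there were 0 calls with near-identical names joined (7 at an unadjusted p under 0.05) or with miR166 left out (54). Of the 33, 32 were of miR164 (median 3.58 on the log2 scale) and the other was novel_mir_105. The levels of novel_mir_105 were 30.6 and 4.74 CPM at 10 DAP and 612 and 3.39 CPM at 30 DAP. These overlap, with replicate 1 at 30 DAP the only high library. For cme-miR164d the levels were 394 and 250 CPM at 10 DAP and 6616 and 1774 CPM at 30 DAP (log2 fold change 3.70, SE 1.07, edgeR adjusted p = 0.00984). The difference from 97103, 1.22 (SE 1.36, edgeR adjusted p = 0.620), was not called, so a rise of miR164 was past the threshold in 1 genotype without being shown to differ. These 33 calls fell to 0 without either PI296341FR library at 10 DAP or without its replicate 1 at 30 DAP, with 31 to 41 at an unadjusted p under 0.05.

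The difference between genotypes itself was called for 8 profiles (1.87%), all with the change in PI296341FR above that in 97103. These were the 6 of miR408, from 6.12 to 6.32 on the log2 scale, and cme-miR167e and aqc-miR167 at 7.68 and 7.54. For ahy-miR408-3p, PI296341FR stood at 85.2 and 97.6 CPM at 10 DAP and at 700 and 41.8 CPM at 30 DAP, so its libraries at 30 DAP lay on both sides of those at 10 DAP. The difference was 6.20 (SE 1.85, edgeR adjusted p = 0.0481). At both ages all PI296341FR libraries were above all 97103 libraries for this profile. For cme-miR167e, PI296341FR stood at 17.3 and 10.3 CPM and then at 161 and 1.58 CPM, again on both sides, from 13, 26, 69 and 7 counts (difference 7.68, SE 1.88, edgeR adjusted p = 0.0121). Leaving out replicate 2 of 97103 at either age, either PI296341FR library at 10 DAP or its replicate 1 at 30 DAP gave 0 calls (edgeR, 11 to 49 profiles at an unadjusted p under 0.05). Leaving out each of the other libraries gave 2, 5 or 14 calls, and DESeq2 gave 0 (101 profiles at an unadjusted p under 0.05).

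For other profiles that fell in 97103 the difference between genotypes was not called. For bdi-miR390a, PI296341FR stood at 755 and 520 CPM at 10 DAP and at 293 and 178 CPM at 30 DAP, lower without overlap (log2 fold change −1.44, SE 1.18, edgeR adjusted p = 0.823). The difference from 97103 was 4.21 (SE 1.71, edgeR adjusted p = 0.257). For gma-miR160a-3p the change was −3.04 in PI296341FR, with a difference of 4.65 (SE 1.81, edgeR adjusted p = 0.257). For vvi-miR2950-5p the change was −0.48, with a difference of 5.46 (SE 1.77, edgeR adjusted p = 0.0977). With counts summed per family the difference was called for miR2950, a family of 1 name (6.28, SE 1.67, edgeR adjusted p = 0.00409 over 31 families), and for miR397 (5.26) and miR408 (edgeR adjusted p = 0.0183 and 0.00409).

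**Figure D4:**
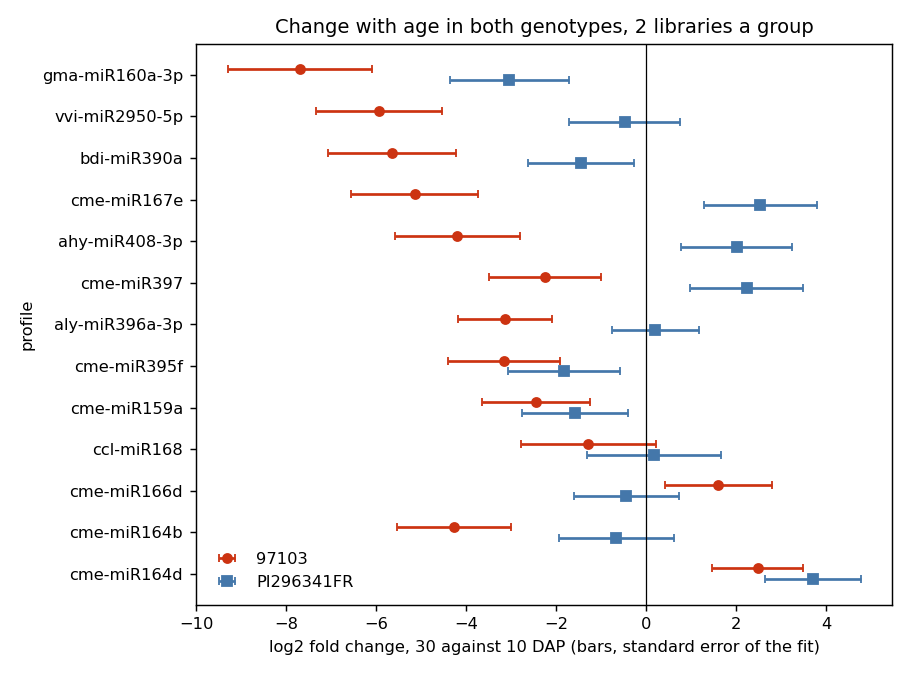
Points give the log2 fold change from 10 to 30 DAP of 13 profiles in 97103 (red circles) and PI296341FR (blue squares), with bars of 1 standard error of the fit. The change is −4.19 and 2.01 for ahy-miR408-3p, and 2.48 and 3.70 for cme-miR164d.

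The stage set measured 97103 at the same ages in 3 libraries each, and 18 melon names were listed in both sets. The tables were counted separately, so only changes were compared, in 1 fit over these names. With TMM factors taken from these 18 names, 14 names were lower at 30 DAP in the genotype set (77.8%). In the stage set 2 were higher (11.1%), cme-miR156g and cme-miR164c. In the fit over all 427 profiles, with the same 4 libraries of 97103, only cme-miR164b of these 18 names was called. For example, cme-miR159a changed by −4.12 here (edgeR adjusted p = 4.3e-05) against −2.44 there (0.200), and cme-miR156c by −1.88 (0.0376) against −1.28 (0.361). The difference between sets was called for 5 names (27.8%), all with the lower change in the genotype set. The median difference over the 18 names was −2.44, and there were 0 calls with RLE factors (edgeR, 4 at an unadjusted p under 0.05), 2 with DESeq2 and 13 without scaling factors. The 2 of DESeq2 ran in opposite directions, cme-miR319a lower in the genotype set (−2.48) and cme-miR166b higher (0.91). Leaving out replicate 2 of the stage set at 30 DAP gave 0 (edgeR, 3 at an unadjusted p under 0.05). It was 1 without replicate 1 of that group or replicate 2 of the genotype set at either age, 3 without replicate 3 of the stage set at 30 DAP and 8 without replicate 1 of the genotype set at 30 DAP. Shared totals were held by different names: cme-miR166b was 27.8% to 86.9% of them in the genotype set and 3.92% to 14.7% in the stage set, and cme-miR159a was 65.0% to 68.7% at 10 DAP in the stage set. After TMM scaling in this fit, cme-miR159a stood at 1.44e+06, 1.81e+06 and 493926 CPM in those 3 libraries. The scaling thus set libraries with a like share of this name far apart. The calls of this fit rest on that scaling and do not establish opposite changes in the 2 sets.

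Relative to the median of the shared names within each set, several changes lay close together. For cme-miR164c the relative change was 3.57 in the genotype set and 2.51 in the stage set, where its counts were 487 in all at 10 DAP and 2716 at 30 DAP. For cme-miR159a it was −1.85 and −1.77, for cme-miR530b −1.15 and −1.23, and for cme-miR156c 0.38 and 0.41. Others lay apart: cme-miR162 was at 0.05 and −2.0, cme-miR172b at −0.14 and −1.93, and cme-miR319a at −1.69 and −0.22. The test of the difference took the changes themselves, and these gaps relative to the median were not tested. Among the 5 called names, cme-miR156g had 0 counts in all at 10 DAP and 14 at 30 DAP in the stage set, and cme-miR164b had 1 and 2, so no fold is given for them.

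**Figure D5:**
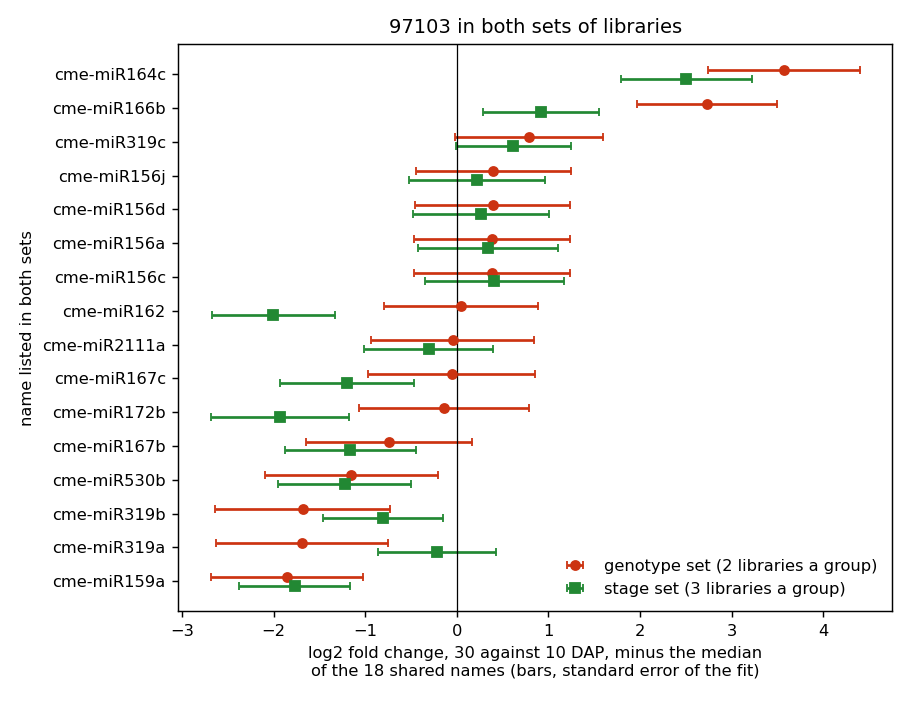
For 16 names listed in both sets, points give the log2 fold change from 10 to 30 DAP in 97103 minus the median of the 18 shared names, in the genotype set (red circles) and the stage set (green squares), with bars of 1 standard error of the fit. In both sets cme-miR164c is the highest, at 3.57 and 2.51.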

How the data were processed

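Counts per microRNA name were deposited by the authors, 1 table per library. Trizol extracts of flesh were run on a gel, RNA under 100 nt was recovered and Illumina small RNA libraries were made, per the labels' protocols. Tools named by the submitters' processing notes are BWA and fastp. Not given in the sources used here: the genome build, the microRNA reference, the counting rule and the treatment of reads that match several names, so totals over names are not reads and no counting interval is given.

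The 8 libraries of the genotype set (4 groups of 2) were fitted together with edgeR 4.0.16 in R 4.3.3: names of 1 family with the same counts were kept once, filterByExpr used a minimum count of 10, factors were TMM, and the quasi-likelihood F test was adjusted by Benjamini-Hochberg over 427 profiles at 0.05. The standard error is the log2 fold change divided by the root of F. The 18 shared names were fitted unfiltered with 10 libraries, and 12 stage libraries at other ages were not used. The script was tested on simulated counts. Alternatives were RLE factors, none, other filters, DESeq2 1.42.0, other treatments of copies, 97103 alone, miR166 left out, a replicate block, and each library left out.

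Named were up to 10 called profiles per direction (at most 2 a family), the most abundant profile (by summed count in 97103) of each listed family and of 5 other families, and the novel_mir names. Names outside the rule are marked as chosen later, or are given only to show the range in a family. The comparison, lists and rule were chosen with earlier results of these data known. Chi-square tests between the replicates within each group of the genotype set found no duplicated library. Other pairs of libraries were not tested.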

Additional observations from a re-analysis of the deposited data

Results flagged for a closer look

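The change with age differed between genotypes for 8 profiles, by the test of the difference itself, each value being the change in PI296341FR minus that in 97103 on the log2 scale. It was 7.68 for cme-miR167e and 7.54 for aqc-miR167. Among miR408 profiles it was 6.12 for cme-miR408, 6.2 for ahy-miR408-3p, 6.2 for cca-miR408, 6.12 for gma-miR408c-3p, 6.32 for nta-miR408 and 6.2 for smo-miR408. The 6 miR408 profiles nearly copy each other and count as 1 observation, as do the pair of miR167. In all 8, the PI296341FR libraries at 30 DAP were far apart, replicate 1 being the high one.

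The change with age differed between the genotype set and the stage set of 97103 for 3 shared names that had over 3 counts in every group, given as genotype set minus stage set on the log2 scale. It was -2.67 for cme-miR159a, -4.07 for cme-miR319a and -3.47 for cme-miR319b. Relative to the median difference of −2.44, these were −0.23, −1.63 and −1.03. The calls rest on scaling over the shared names alone.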

How the results depend on the processing

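The 24 calls in 97103 became 55 with RLE factors (32 higher, 23 lower), 83 without scaling factors (all lower), 47 with a minimum count of 50 (31 higher, 16 lower), 55 with DESeq2 (32 higher, 23 lower), 243 of 1261 with every name kept, 7 of 135 with near-identical names joined, 1 of 31 with counts summed per family, and 13 of 323 without miR166. With 1 library left out there were 0 to 48. With RLE factors 21 of the 24 were among the calls, and with DESeq2 17 of the 20 to which it gave an adjusted p, which it withheld from 116 profiles.

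Calls of the difference between genotypes were 2 with RLE factors, 9 without scaling factors, 2 with no filter, 2 with a minimum count of 50 and 0 with DESeq2. There were 2 with every name kept, 2 with names joined, 3 with family sums, 0 without miR166 and 0 to 14 with 1 library left out. Calls in PI296341FR were 144 with every name kept (all lower), 0 with names joined, 1 with family sums, 0 without miR166 and 0 to 33 with 1 library left out. Differences between sets were 0 with RLE factors, 13 without scaling factors, 2 with DESeq2 (1 in each direction) and 0 to 8 with 1 library left out. The median log2 fold change of all profiles ran from −0.88 to 0.59 with 1 library left out. The values for aly-miR396a-3p ran from −5.84 to 0.43 and those for gma-miR396i-3p from −5.65 to 0.42.

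Libraries that share a replicate number deviated together between 10 and 30 DAP in 97103 (correlation 0.52), but 2 pairs do not establish a pairing. With a replicate block there were 16 calls in 97103, 2 between genotypes, 32 in PI296341FR and 10 between sets. With the 4 libraries of 97103 alone there were 23, and with both choices, added after seeing the data, a replicate block gave 46.

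Of 740 values of the 40 named profiles under other settings, 554 kept direction and call, 93 lost a call, 15 gained one, 2 (aly-miR396a-3p and gma-miR396i-3p) lost their call and turned sign, and 76 changed sign without a call in either fit. Of 618 family medians, 550 kept their sign. The cause of these shifts was not tested. With 2 libraries a group and a common dispersion of 0.464, changes as large as −3.97 (cme-miR408) did not pass.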
